A study of Mus musculus with 5 samples.

Results

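The genes Olig1 and Olig2 lie next to each other on mouse chromosome 16, and the locus was taken as all peaks that overlapped a 200 kb window of the mm9 build, from 91150000 to 91350000. The window held 57 of the 258727 peaks in the 5 deposited lists. These were 13 of 39201 Olig2 peaks, 12 of 56600 H3K27ac peaks of control tumours, 10 of 69365 H3K27ac peaks of Olig2cKO tumours, 12 of 44676 H3K4me3 peaks of control tumours and 10 of 48885 H3K4me3 peaks of Olig2cKO tumours. Olig2 was placed near 91.226 Mb and Olig1 near 91.27 Mb when the window was defined. Those rounded positions equal the starts in the GRCm38.p6 gene table, and mm9 gene models were not used here. They are therefore approximate, and whether a peak covers a promoter, an exon or an intron is not stated. In the GRCm38.p6 table the nearest protein-coding neighbours are 4932438H23Rik on the side of Olig2 and Ifnar2 on the side of Olig1.

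The libraries came from PDGFB-induced gliomas of mice of a mixed C57Bl/6, 129Sv and CD-1 background, 25 days after virus injection. Control tumours carried floxed P53 alleles, and Olig2cKO tumours carried floxed P53 and floxed Olig2 alleles. P53 is a tumour suppressor, and both genotypes share its floxed alleles. Each of the 5 groups had 1 library, Olig2 was mapped in control tumours, and the labels name neither the recombinase, the floxed part of Olig2, the age of the mice nor the number of tumours per library. The genotypes are therefore compared through single libraries, which have no replicates, and no test was made. The lists give no read numbers, so the depth is unknown.

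Olig1 and Olig2 encode basic helix-loop-helix transcription factors of the oligodendrocyte lineage. Olig2 specifies oligodendrocyte precursors and is widely expressed in gliomas, and Olig1 acts in the same lineage, mainly in maturation and myelination. Factors of this family bind short sequences called E-boxes, written CANNTG. Acetylation of lysine 27 of histone H3 (H3K27ac) marks active promoters and enhancers, and trimethylation of lysine 4 (H3K4me3) marks mainly promoters.

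An Olig2 peak and an H3K27ac edge lay at the approximate position of Olig2, so its RefSeq promoter is shown first. It is on the plus strand of GRCm38.p6, and no peak position was laid on it because the builds differ. The letters are the 250 bases before the annotated start, 5′ to 3′, with 2 matches to the CCAAT box (CCAAT, both found on the opposite strand as ATTGG) and 1 match to the TATA box (TATAAA) in capitals.

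Olig2 promoter: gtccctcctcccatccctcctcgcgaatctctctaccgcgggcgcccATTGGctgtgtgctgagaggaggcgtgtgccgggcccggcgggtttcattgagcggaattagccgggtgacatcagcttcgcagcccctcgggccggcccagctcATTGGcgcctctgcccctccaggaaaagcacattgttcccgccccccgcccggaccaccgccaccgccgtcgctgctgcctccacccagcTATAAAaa

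The CCAAT matches begin at bases 48 and 153 and the TATA match at base 243, counted from 1 at the 5′ end. On either strand, CCAAT is held by 33.8% and TATAAA by 12.4% of the 32851 promoters in the table, over the same 250 bases. The E-box letters CANNTG had 0 matches here and occurred in 66.2% of all promoters. The narrower E-box forms CAGCTG and CATCTG, which are both contained in CANNTG, occurred in 13.0% and 14.4%. The Olig2 stretch is 66.8% G and C, against a median of 52.4% over all promoters. The promoter table used here has no entry for Olig1.

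**Figure D1:**
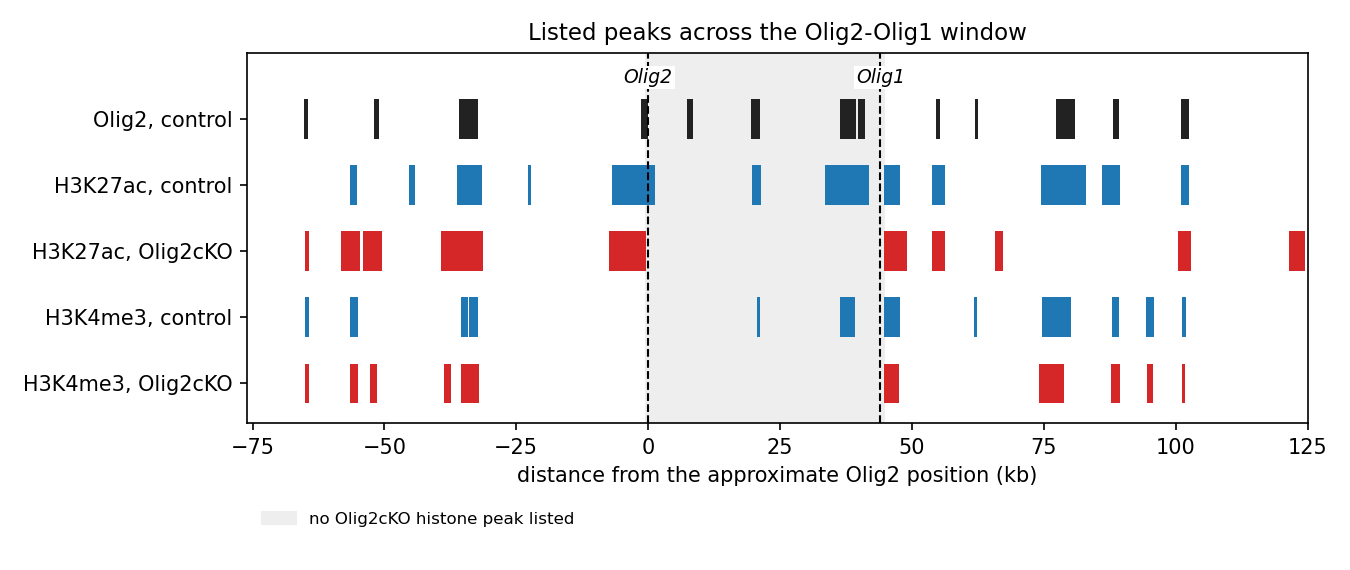
Listed peaks of the 5 libraries (rows; blue for control and red for Olig2cKO histone lists, black for Olig2) by distance in kb from the approximate Olig2 position, with dashed lines at the approximate positions of both genes. The grey stretch of 45.0 kb holds 4 control histone peaks and 4 Olig2 peaks wholly inside it, and no Olig2cKO histone peak is listed in it.

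The window stood high among windows of its size by the length under peaks, and less so by the number of peaks. Olig2 peaks covered 21.9 kb of the window in control tumours, more than in 99.95% of 11017 other windows of 200 kb with a peak in any list, whose median was 2334 bp. H3K27ac peaks covered 44.9 kb in control and 36.0 kb in Olig2cKO tumours, more than in 99.7% and 97.1% of the windows. H3K4me3 peaks covered 21.2 kb and 18.8 kb, more than in 97.8% and 94.3%. By number of peaks, the window exceeded 98.7% of the windows for Olig2, 90.0% and 74.0% for H3K27ac in control and Olig2cKO tumours, and 95.8% and 90.0% for H3K4me3. The covered length was smaller in the Olig2cKO list than in the control list for both marks, whereas the Olig2cKO lists are the longer ones over the genome. With the upper 50% of each list by score the order turned for H3K4me3, to 14.3 kb in control and 15.2 kb in Olig2cKO tumours, and stayed for H3K27ac, at 34.6 and 16.4 kb.

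Peaks of the locus were also wide. Of the 12 control H3K27ac peaks, 3 were 7 kb wide or wider, against 0.555% of the whole list. In Olig2cKO tumours 2 of 10 were that wide, against 0.535%. No H3K4me3 peak of the window reached 7 kb in either genotype, where the whole lists held 0.197% in control and 0.405% in Olig2cKO tumours. The widest peak anywhere was 9063 bp in the control and 8977 bp in the Olig2cKO H3K27ac list, and 9145 and 9285 bp in the H3K4me3 lists. The sources used here do not say whether wider regions were dropped by the peak caller, so an unlisted stretch does not show that a mark was absent.

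The Olig2 protein was found at its own locus at 13 sites. The peak at the approximate position of Olig2 itself ran from 91224629 to 91226040, with a score of 128.08. The score is the number the authors' peak caller gave each peak, with a floor near 50 in every list, and it ranks peaks only within one list. In the Olig2 list 67.0% of peaks scored lower than this one. Of the other 12 sites, 7 scored higher. The highest, 640.07, was that of the site from 91303236 to 91306943, 33.2 kb beyond Olig1, and 99.4% of the list scored lower.

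Between the genes lay 4 Olig2 sites. The site from 91233281 to 91234578 scored 490.67 and lay 7.28 kb beyond the approximate position of Olig2. The site from 91245548 to 91247228 scored 565.3. A pair of sites before Olig1, from 91262390 to 91265442 and from 91265722 to 91267152, scored 130.31 and 379.72. Of these 4, 3 were above 96.4% or more of the list. On the far side of Olig2, the site from 91190233 to 91193759 scored 395.51, above 96.8% of the list, and its 3527 bp were exceeded in the window by the highest site alone, with 3708 bp.

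The other 6 sites scored from 64.98 to 146.19. They lay from 91160684 to 91161454 (score 64.98), from 91174116 to 91174997 (74.37), from 91280631 to 91281370 (74.53), from 91287892 to 91288615 (66.21), from 91314159 to 91315224 (87.81) and from 91326975 to 91328599 (146.19). Over all 13 sites, 8 scored above the list's median of 93.38 and 10 were wider than its median of 834 bp. Of the 6 sites named last, 5 fell under the list's median.

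**Figure D2:**
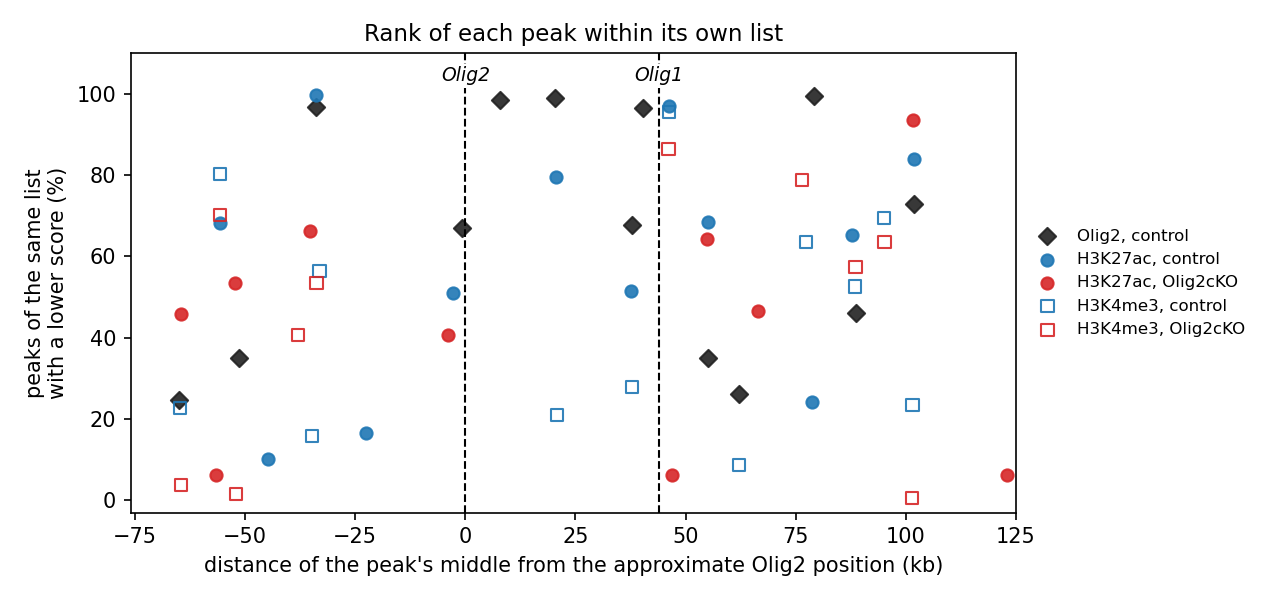
Percent of peaks in the same list that scored lower (vertical axis), for each peak of the window by the distance of its middle from the approximate Olig2 position in kb; markers and colours give the library. The Olig2 sites at 96.4% to 99.4% lie before Olig2, between the genes and beyond Olig1, and heights are not comparable between lists.

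At the approximate position of Olig2, H3K27ac was listed in both genotypes with different right edges. The control peak ran from 91219104 to 91227271 (8168 bp, score 182.07) and covered that position. The Olig2cKO peak ran from 91218660 to 91225659 (7000 bp, score 131.85) and ended 0.341 kb before it. That distance is within the rounding of the position, so whether the Olig2cKO peak reaches the start of Olig2 cannot be told. The left edges differed by 444 bp and the right edges by 1612 bp, and the Olig2cKO peak was narrower by 1168 bp. Of 43120 one-to-one H3K27ac pairs in the genome, 3.42% narrowed by more than this, and the median pair was 73 bp wider in Olig2cKO tumours. Olig2 is the floxed gene. DNA removed from the allele and loss of the mark from DNA that is still there would both leave no reads, so these cannot be told apart at the gene.

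H3K4me3 was not listed within 5 kb of the approximate Olig2 position in either genotype. The nearest control peak was 20.6 kb away, from 91246558 to 91247223. The nearest Olig2cKO peak was 32.1 kb away, from 91190522 to 91193859. The control library thus has no listed H3K4me3 peak near Olig2 although its Olig2 and H3K27ac peaks lie there, and a region wider than the widest listed peaks cannot be told apart from an unmarked one.

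Between the genes, control tumours had peaks of both marks and Olig2cKO tumours had none listed. In Olig2cKO tumours no H3K27ac or H3K4me3 peak was listed over 45.0 kb, from 91225660 to 91270641. The stretch takes in the approximate position of Olig2, the floxed gene, where removed DNA and a lost mark cannot be told apart. Control tumours had 4 histone peaks wholly inside this stretch. The H3K27ac peaks ran from 91245740 to 91247342 (score 470.2, above 79.6% of its list) and from 91259506 to 91267867 (8362 bp, score 184.65). The H3K4me3 peaks ran from 91246558 to 91247223 (score 110.08) and from 91262366 to 91265178 (score 144.35), each on one of the H3K27ac peaks. The acetylated peaks stood above their list's median score of 176.9, and the H3K4me3 peaks stood under theirs of 345.2.

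Such a stretch was uncommon. The Olig2cKO histone peaks left 83251 gaps between neighbouring peaks, 7953 of which held a control histone peak, and 59 (0.0709%) held 4 or more. In 12 gaps, this one included, the control peaks inside covered 9965 bp or more. Among the 11274 gaps at least as long, 47 held 4 or more control peaks. The gaps were counted after this stretch had been seen, so the counts describe it and are no test. Cutting the Olig2cKO lists to the length of the control lists removes Olig2cKO peaks alone. It could therefore not lower the count of 4 control peaks, and it left the stretch as it was. Of these 4 control peaks, 2 were in the upper 50% of the control lists by score.

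**Figure D3:**
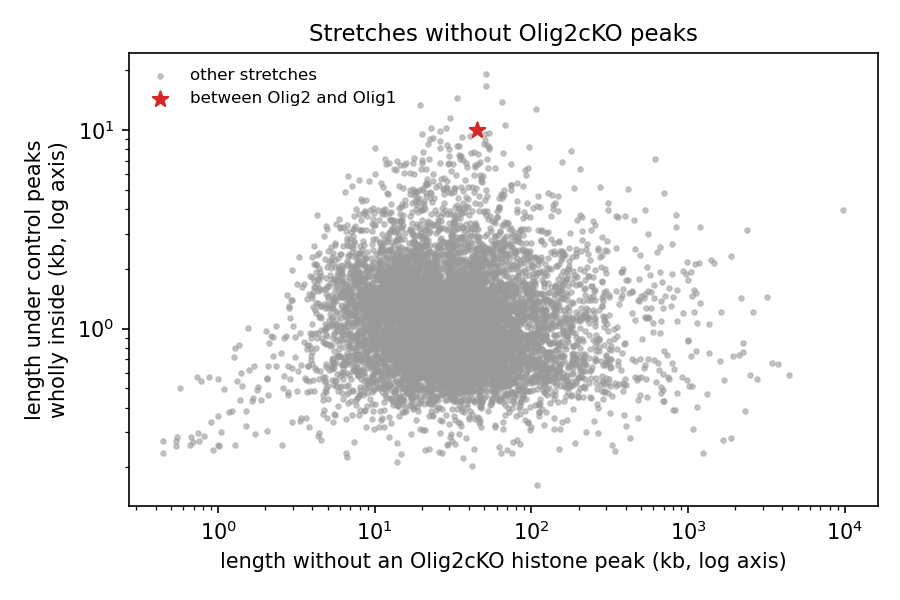
Each point is 1 of the 7953 gaps between neighbouring Olig2cKO histone peaks that held a control histone peak, by its length in kb and by the length under control peaks wholly inside, both on log axes. The star is the gap between Olig2 and Olig1, which is 45.0 kb long with 9965 bp under control peaks.

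The 4 Olig2 sites of this stretch differed in their control marks. The site from 91245548 to 91247228 and the site from 91262390 to 91265442 carried both marks in control tumours. The site from 91265722 to 91267152 carried H3K27ac alone. The site from 91233281 to 91234578 carried neither mark in either genotype, as did 17.1% of all Olig2 peaks, although its score was above 98.4% of the list. Over the window, 4 of 13 Olig2 sites had a control mark and no Olig2cKO mark, against 4.3% of all Olig2 peaks. These were 3 sites of the stretch and the site from 91287892 to 91288615.

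At Olig1 the marks were listed in both genotypes. The H3K4me3 peaks ran from 91270723 to 91273723 in control and from 91270642 to 91273640 in Olig2cKO tumours, with edges that differed by 81 and 83 bp. Their scores, 2476.66 and 1503.65, were the highest of the window in each list and above 95.4% and 86.5% of their lists. H3K27ac ran from 91270675 to 91273776 in control tumours (score 1223.38) and from 91270723 to 91275004 in Olig2cKO tumours (score 57.15). The control score was above 97.0% of its list, and the Olig2cKO score was above 6.28%. Among the 2094 Olig2cKO peaks of 4 to 5 kb, which had a median score of 356.6, 1.15% scored lower. The Olig2cKO H3K27ac peaks from 91167688 to 91171291 and from 91347473 to 91350597 had nearly the same score, 57.2 and 57.11. Why these scores lie so close was not tested. Scores and ranks of lists of different length do not measure a change, so these values are given side by side. No Olig2 peak overlapped the marks at Olig1 itself, and the nearest ended 2.85 kb before its approximate position.

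Before Olig2, the highest-scoring acetylation of the window in control tumours lay on an Olig2 site. The control H3K27ac peak from 91189834 to 91194510 scored 1913.82, above 99.6% of its list, on the Olig2 site from 91190233 to 91193759. The Olig2cKO peak there ran from 91186767 to 91194599 (score 262.16). It was wider than the control peak by 3156 bp, and 99.1% of the one-to-one pairs had a smaller difference of Olig2cKO minus control width. Its extra length lay on the left, where the edge moved by 3067 bp. An Olig2cKO-only H3K4me3 peak lay under that added part, from 91187339 to 91188598 (score 232.44). The control H3K4me3 peaks from 91190462 to 91191848 (score 89.8) and from 91191995 to 91193777 (449.76) both overlapped the single Olig2cKO peak from 91190522 to 91193859 (373.87). This site therefore carried both marks in both genotypes.

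Farther before Olig2, marks were listed in Olig2cKO tumours where control tumours had fewer. The Olig2 site from 91174116 to 91174997 had no control mark. In Olig2cKO tumours it carried H3K27ac from 91171983 to 91175576 (score 183.84) and H3K4me3 from 91173228 to 91174508 (score 52.74, near the floor). It was the only one of the 13 sites with marks in Olig2cKO tumours alone, against 6.1% of all Olig2 peaks. The site from 91160684 to 91161454 had H3K4me3 in both genotypes (118.08 in control, 56.74 in Olig2cKO) and H3K27ac only in Olig2cKO tumours, from 91161015 to 91161763 (151.27). Between these, a region without Olig2 carried H3K4me3 from 91169503 to 91171004 in control (1253.92) and from 91169543 to 91170899 in Olig2cKO tumours (734.28). H3K27ac lay there from 91169556 to 91170886 in control (306.95) and from 91167688 to 91171291 in Olig2cKO tumours (57.2).

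Beyond Olig1, the marks parted by listing at the highest Olig2 site, from 91303236 to 91306943. H3K4me3 was listed there in both genotypes, from 91300712 to 91306079 in control (score 613.78) and from 91300062 to 91304781 in Olig2cKO tumours (1061.46). The control peak ended past the middle of the site and the Olig2cKO peak before it. The right edges differed by 1298 bp, and the Olig2cKO peak was narrower by 648 bp. Of the one-to-one H3K4me3 pairs, 0.834% narrowed by more than this. Under the stricter overlap rule given below, the site no longer counted as lying on Olig2cKO H3K4me3. H3K27ac was listed at this site in control tumours alone, from 91300560 to 91309083 (8524 bp, score 89.71). The next Olig2 site, from 91314159 to 91315224, showed the same listing. It had H3K4me3 from 91313932 to 91315182 in control (382.4) and from 91313829 to 91315398 in Olig2cKO tumours (437.43), and control-only H3K27ac from 91312046 to 91315455 (278.5). No Olig2cKO H3K27ac peak was listed over 33.1 kb here, from 91293297 to 91326435. The control H3K27ac peaks inside covered 11934 bp, a length reached by 23 of 69343 gaps between Olig2cKO H3K27ac peaks, and 8524 bp of it came from the low-scoring peak on the highest Olig2 site. By number the stretch was less unusual, since 1362 gaps (1.96%) held at least 2 control H3K27ac peaks, 1037 of them at least as long. This stretch, too, was chosen after it had been seen.

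A further pair of Olig2 sites beyond Olig1 carried the same marks in both genotypes. The Olig2 site from 91326975 to 91328599 carried all 4 histone peaks. Its H3K27ac ran from 91327007 to 91328576 in control (563.22) and from 91326436 to 91328921 in Olig2cKO tumours (807.97, the highest H3K27ac score of that list in the window). Its H3K4me3 ran from 91327157 to 91327907 in control (121.68) and from 91327282 to 91327735 in Olig2cKO tumours (50.84, near the floor). In that Olig2cKO list 0.538% of peaks scored lower. The site from 91280631 to 91281370 carried H3K27ac in both, from 91279899 to 91282257 (309.61) and from 91279723 to 91282219 (247.4), with no H3K4me3. A region without Olig2 carried H3K4me3 from 91320438 to 91321847 in control (791.29) and from 91320572 to 91321782 in Olig2cKO tumours (555.17).

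Counted over the window, 6 of 12 control H3K27ac peaks were control-only, meaning that no peak of the Olig2cKO list overlapped them by 1 bp. The share over the whole list was 17.9% (95% exact binomial interval 17.6 to 18.3, counting error only). Of these 6, 4 overlapped an Olig2 site. Of all 8 control H3K27ac peaks with Olig2 in the window, 4 were control-only, against 9.35% of such peaks in the genome. The other 2 control-only peaks were weak and lay without Olig2, from 91180610 to 91181739 (score 62.98) and from 91203194 to 91203812 (73.68). In the 200 kb on either side of the window, 0 of 8 and 1 of 18 control H3K27ac peaks were control-only.

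Olig2cKO-only H3K27ac peaks were nearer to the share over the whole list, with 4 of 10 against 30.9%. Besides the peaks on the Olig2 sites before Olig2, these lay from 91291841 to 91293296 (score 153.87) and from 91347473 to 91350597 (57.11), both without Olig2. The second runs past the end of the window. The flanks held 2 of 11 and 4 of 21 such peaks. With Olig2, 2 of 6 were Olig2cKO-only, against 10.4% of such peaks in the genome, a comparison that uses Olig2 sites of control tumours.

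For H3K4me3, 3 of 12 control peaks were control-only, against 8.13% of the list, and all 3 overlapped an Olig2 site. They were 3 of the 9 control H3K4me3 peaks with Olig2, against 6.59% of such peaks in the genome. These were the 2 peaks between the genes and the peak from 91287823 to 91288353 (score 68.86). All 3 scored under the list's median. Olig2cKO-only peaks were 2 of 10, near the 21.4% of the whole list, and 1 of 6 with Olig2, against 10.2%. The flanks held 2 of 9 and 1 of 13 control-only peaks, and 5 of 12 and 0 of 11 Olig2cKO-only peaks. With lists of equal length the control-only count became 5, and with the upper 50% of each list it became 0, so the H3K4me3 counts rest on weak peaks.

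**Figure D4:**
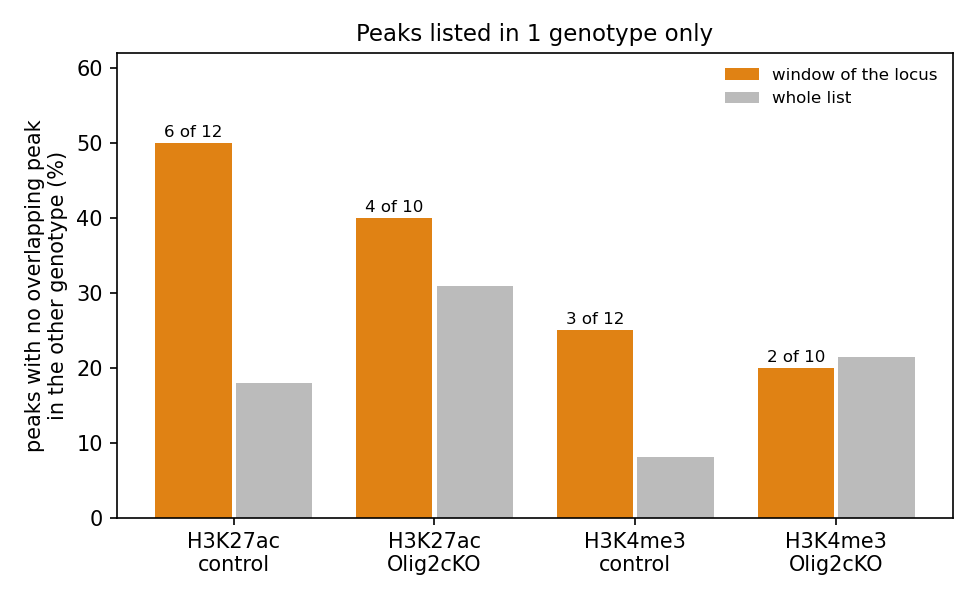
Percent of peaks with no overlapping peak in the other genotype, for the window (orange, with counts) and for the whole list (grey), in the 4 histone lists. Control-only H3K27ac stands at 6 of 12 against 17.9%, and Olig2cKO-only H3K4me3 at 2 of 10 against 21.4%.

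By site, H3K27ac lay on 9 of 13 Olig2 sites in control tumours and on 6 in Olig2cKO tumours, against 68.9% and 70.2% of all Olig2 peaks. At 4 sites both genotypes had it (62.8% of all Olig2 peaks), at 5 only control tumours (6.11%) and at 2 only Olig2cKO tumours (7.42%). H3K4me3 lay on 8 sites in control and 6 in Olig2cKO tumours, against 55.6% and 58.1%. Both genotypes had it at 5 sites (51.7%), only control tumours at 3 (3.84%) and only Olig2cKO tumours at 1 (6.43%). With overlaps of 50% of the shorter peak, 4 sites lay on Olig2cKO H3K4me3. Both marks in both genotypes were found at 2 sites, from 91190233 to 91193759 and from 91326975 to 91328599. At the second, the Olig2cKO H3K4me3 peak scored 50.84, near the floor.

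By length, 19.5 kb of the window lay under H3K27ac peaks of both genotypes, 25.3 kb under control peaks alone and 16.5 kb under Olig2cKO peaks alone. For H3K4me3 these lengths were 15.0, 6.23 and 3.85 kb. Between the approximate positions of the genes, 11.2 kb lay under H3K27ac and 3.48 kb under H3K4me3 in control tumours alone, and 0 under either mark in Olig2cKO tumours. Covered length moves with how much each library called, and the depth of the libraries is unknown.

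**Figure D5:**
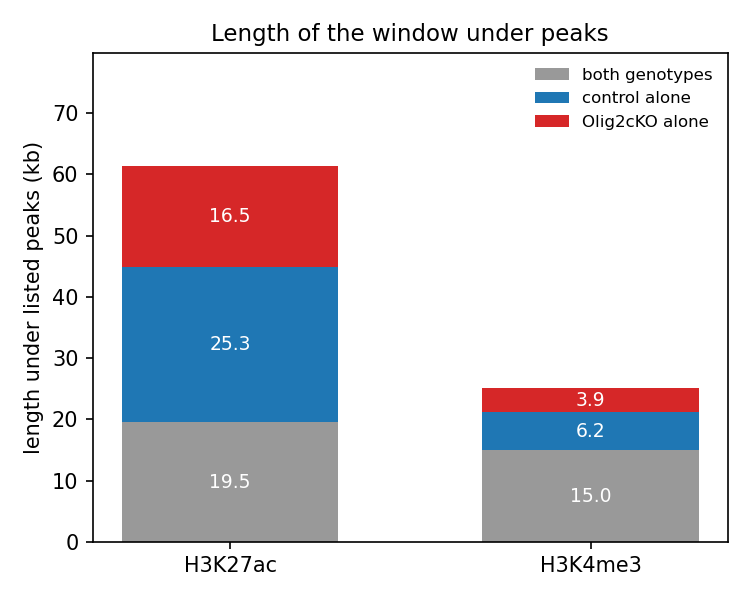
Length of the window in kb under listed peaks of both genotypes (grey), of control tumours alone (blue) and of Olig2cKO tumours alone (red), for each mark. H3K27ac is split into 19.5, 25.3 and 16.5 kb and H3K4me3 into 15.0, 6.23 and 3.85 kb.

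Acetylation of the locus did not form a stitched distal domain by the rule used for the genome. H3K27ac peaks without H3K4me3 of the same genotype were called distal and joined across short gaps, and a domain needed 3 of them. The window held 4 distal H3K27ac peaks in each genotype and 0 domains, where the genome held 1419 domains in control and 2148 in Olig2cKO tumours. A limit of 5 kb on the gaps can only split groups, so its 0 domains in the window add nothing. The largest joined group had 1 peak in control and 2 in Olig2cKO tumours. In control tumours 8 of the 12 H3K27ac peaks carried H3K4me3, which kept them out of the rule.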

How the data were processed

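ChIP-seq peak lists of 5 libraries were used. CASAVA, Bowtie2 and MACS, for the mouse build mm9, are named per the submitters' processing notes; the sources used here give no versions or settings and do not say whether an input library was used. Each deposited list gives the start, end and score of the peaks of 1 library. The score is the one the authors' peak caller wrote; its lowest value in each list is near 50, and it is not scaled between libraries. Depth is unknown. The full genotype that both groups share is not reported here.

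Peaks overlapping the window by at least 1 bp were the members. Overlaps were computed over the whole lists in Python 3.11.15 (numpy 2.4.6, pandas 2.3.3, scipy 1.17.1), and figures were drawn with matplotlib 3.10.9. The numbers of peaks without a partner equalled those of bedtools 2.31.1 in 4 of 4 comparisons, and on simulated lists with 70.0% of 56600 peaks given a partner, 70.2% had one. Positions count from 1. With 1 library per group, no test was made. The promoter is from RefSeq (GRCm38.p6).

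Named were all Olig2 peaks, and the histone peaks that overlapped one, lay within 5 kb of a gene's approximate position, had no partner or were among the 3 highest of their list in the window; the control and Olig2cKO partners of these were given with them. The members, lists and rules were chosen with earlier results of these data known. The alternatives tried were other overlap rules, score filters, equal list lengths, merging at 1 kb, other windows and a stitching distance of 5 kb; those for the stretch between the genes were chosen after seeing the data.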

Additional observations from a re-analysis of the deposited data

How the results depend on the processing

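No paired analysis was possible because each group had 1 library. Counting peaks by their middle and merging peaks within 1 kb kept every count within 1.5 times. So did counting as shared peaks up to 1 kb apart, or only overlaps of 50% of the shorter peak. The 50% rule took the Olig2 sites on Olig2cKO H3K4me3 from 6 to 4, at the edge of that limit. The sites that dropped out ran from 91174116 to 91174997 and from 91303236 to 91306943. Stitching at 5 kb, a stricter limit than that of the main rule, could only keep the count of 0 domains. A grid shifted by 100 kb kept the place of the locus among windows. Keeping the upper 50% of each list by score left 8 Olig2 peaks, 4 Olig2cKO H3K27ac peaks and 6 H3K4me3 peaks in each genotype. It left 1 Olig2cKO-only H3K27ac peak, and 0 control-only and 0 Olig2cKO-only H3K4me3 peaks. The control-only H3K27ac count was again 6, but not of the same peaks. Those scoring 62.98, 73.68 and 89.71 dropped out. Control peaks at Olig2, at Olig1 and from 91169556 to 91170886 counted instead. Their Olig2cKO partners (131.85, 57.15 and 57.2) had been filtered away. With the upper 50% of each list, 2 Olig2 sites lay on Olig2cKO H3K27ac, 2 on control and 2 on Olig2cKO H3K4me3. Covered lengths became 17.7 kb (Olig2), 34.6 and 16.4 kb (H3K27ac, control and Olig2cKO) and 14.3 and 15.2 kb (H3K4me3), so the order of the genotypes turned for H3K4me3.

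Narrowing the window by 50 kb on each side left 7 Olig2 peaks, 6 and 4 H3K27ac peaks, and 4 and 1 H3K4me3 peaks, control first, over 10.3, 24.2, 15.2, 7.01 and 2.999 kb. Lists of equal length cut low-scoring Olig2cKO peaks alone, so control-only counts can only rise and Olig2cKO-only counts can only fall. They gave 5 control-only and 1 Olig2cKO-only H3K4me3 peaks, and 8 control-only H3K27ac peaks. Among these 8 was the peak at Olig1, whose Olig2cKO partner (score 57.15) was cut. In the stretch between the genes, the upper 50% of control peaks against all Olig2cKO peaks left 2 control peaks. With the upper 50% of all lists the stretch grew to 76.0 kb, because the Olig2cKO H3K27ac peak at Olig2 (score 131.85) fell out. This longer stretch held 3 control peaks, 1 of them the H3K27ac peak at Olig2 (score 182.07), which lay outside the stretch before. The causes were not tested. The unknown depth, the single library per group and the lack of any histone peak wider than 9285 bp limit every statement that a mark was not listed.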
